A study of Mus musculus with 45 samples.

Results

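The 8 genes described here encode enzymes of heme synthesis: Alas1, Alas2, Alad, Uros, Urod, Cpox, Ppox and Fech. They were taken by name from the 24333 genes of a table of gene scores, and all 8 were found. A gene score is a signal that adds up the accessible-chromatin (ATAC) fragments around a gene in 1 nucleus, scaled to the sum over all genes. It thus measures how open the chromatin around a gene is relative to other genes of that nucleus, and not how much RNA is made. The nuclei came from mouse Ter119+ erythroblasts, red cell precursors sorted by a surface protein, with an intact Stag2 gene (WT) or with Stag2 deleted (KO). Stag2 belongs to cohesin, a ring-shaped complex that forms chromatin loops. Mice of both genotypes had received pIpC, which is used to induce gene deletion, 6 to 8 weeks earlier, and each genotype contributed 3 multiome libraries. The labels name neither the transgene that drives the deletion nor the age of the mice, and nothing in them says whether the 3 libraries of a genotype came from separate animals. The p-values below therefore measure the spread between these libraries, which may be technical. Each nucleus also carries the authors' class (Early, Int, read here as intermediate, or Late) and cluster. RNA, CUT&RUN and Hi-C libraries of the series were not analysed here.

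Heme is the iron-carrying ring of hemoglobin, and erythroblasts make far more of it than other cells. Synthesis starts in mitochondria, where 5-aminolevulinate synthase joins glycine and succinyl-CoA. Alas1 is the form of this enzyme found in most tissues and is held down by heme, while Alas2 is the erythroid form, on the X chromosome, whose promoter is a known target of the erythroid factor Gata1. The next steps take place in the cytosol: Alad joins pairs of aminolevulinate molecules, and later Uros closes the ring and Urod trims its side chains. Cpox and Ppox, back in mitochondria, carry out the next oxidation steps, and Fech inserts the iron.

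The sequences just upstream of the start sites are shown for both isozymes of the first step, whose scores moved in opposite directions, and for Urod, as an enzyme lower in KO whose window holds none of the motifs. Uros was lower in KO in more comparisons than Urod, and its window holds none of them either, but it is not shown. Each is the 250 bases before the start site in RefSeq (GRCm38.p6), read on the gene's own strand. Capitals mark matches on either strand to CACCC or to a GATA motif, which here is AGATAA or AGATAG or TGATAA or TGATAG. The windows are chrX:150547167-150547416 (plus strand) for Alas2, chr9:106247955-106248204 (minus strand) for Alas1 and chr4:116994414-116994663 (minus strand) for Urod.
Alas2: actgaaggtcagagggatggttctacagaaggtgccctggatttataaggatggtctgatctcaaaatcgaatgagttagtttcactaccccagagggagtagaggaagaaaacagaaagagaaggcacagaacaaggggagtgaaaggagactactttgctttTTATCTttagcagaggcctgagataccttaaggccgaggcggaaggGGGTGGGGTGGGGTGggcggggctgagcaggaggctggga
Alas1: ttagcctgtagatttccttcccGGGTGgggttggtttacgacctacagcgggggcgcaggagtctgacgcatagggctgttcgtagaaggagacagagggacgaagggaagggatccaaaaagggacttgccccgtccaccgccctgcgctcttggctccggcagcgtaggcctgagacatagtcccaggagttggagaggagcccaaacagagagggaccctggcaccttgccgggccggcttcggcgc
Urod: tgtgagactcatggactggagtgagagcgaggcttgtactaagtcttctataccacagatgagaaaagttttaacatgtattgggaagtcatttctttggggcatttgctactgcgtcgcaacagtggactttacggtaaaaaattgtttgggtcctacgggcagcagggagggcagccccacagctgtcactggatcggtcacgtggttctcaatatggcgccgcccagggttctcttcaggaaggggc
The Alas2 window held 1 GATA match, from -86 to -81 counted from the start site, and 3 CACCC matches side by side from -40 to -26. The Alas1 window held 1 CACCC match and no GATA match, and the Urod window held neither. Windows were found for 7 of the 8 enzymes. Of the others, Cpox held 2 GATA matches, overlapping by 1 base between -91 and -81, and 4 CACCC matches, while Alad, Uros and Ppox held none of either. In the RefSeq annotation the Alas2 window also overlaps Apex2 and Mir3620, the Alas1 window 4930500F10Rik and the Uros window Bccip, while the Urod window overlaps no other gene. Among 32851 RefSeq windows of this length, 26.5% held a GATA motif and 52% held CACCC. The NF-E2 and AP-1 type of motif, TGANTCA, was in 6.75% of these windows and in none of the 7. A match is only a run of letters, and a gene score covers much more than this window.

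The WT libraries held 5819 to 6990 nuclei and 61655588 to 66286151 fragments, and the KO libraries 4617 to 4925 nuclei and 46782673 to 62592468 fragments. In the median nucleus, 62.2% to 64.7% of fragment ends lay in peaks in WT libraries and 57.4% to 59.9% in KO libraries, without overlap. Of 33320 distinct barcodes, 725 occurred in more than 1 library. Each library's mean score, rescaled so that all genes sum to 1000000, is the value given below. Stag2 itself scored 64.2, 65.7 and 65.9 in WT and 61.0, 65.1 and 62.4 in KO (adjusted p = 0.348, limma); a score over the whole gene does not check the loss of part of it. Of 10 erythroid markers (red cell genes such as Klf1, Gata1 and Slc4a1) 9 were in the table, none was at 0 in any library, and their summed score was 1764 to 1906 in WT and 1541 to 1664 in KO, with 8 of 9 lower in KO by limma (14.2% of all genes were lower and 29.1% higher). The summed score of 6 stem and progenitor markers was 57.3 to 67.3 in WT and 71.6 to 83.1 in KO with 3 of 6 higher, and that of 8 myeloid markers 71.9 to 83.4 and 94.6 to 100.1 with 3 of 7 tested higher. That of 6 lymphoid markers was 74.4 to 80.7 and 85.3 to 91.8 with 2 of 4 tested higher. The 4 mast cell and basophil markers (Cpa3, Ms4a2, Mcpt8 and Gata2) summed to 23.0 to 29.9 and 48.3 to 59.0, with the 1 tested higher. The others of this list had a mean score under 5, so most of its sum in KO came from 1 gene. The 5 megakaryocyte markers summed to 174.7 to 203.9 and 212.0 to 222.9, but of 4 tested 1 was higher and 1 lower. No marker of these lists was at 0 in a library. These summed scores did not overlap between the genotypes, and their part in the results below was not tested.

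The main question was whether the score of each enzyme differed between KO and WT libraries, over all nuclei and within Int and Late nuclei. The erythroid and the general form of the first enzyme moved in opposite directions: Alas1 was higher in KO and Alas2 lower. Uros and Urod were lower too. Over all nuclei, 1 of the 8 enzymes was higher and 3 were lower at an adjusted p under 0.05 (limma, two-sided, Benjamini-Hochberg over all genes tested). The background was high: 43.3% of the 17682 genes tested passed, 29.1% as higher and 14.2% as lower. KO and WT libraries were apart for 4 of the 8 enzymes, with all KO below all WT libraries for 3, against 55.4% and 19.3% of all genes. The median log2 fold change of the 8 enzymes was -0.14, against 0.096 for all genes tested. A mean over all nuclei also cannot tell fewer nuclei of a class from less open chromatin per nucleus, so the values within Int and Late nuclei stand beside it. Int nuclei made up 32.6% to 57.2% of the WT and 44.2% to 48.8% of the KO libraries.

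Alas1, on chromosome 9 from 106233455 to 106247954 (mm10, minus strand), scored 20.5, 21.7 and 19.4 in the WT libraries over all nuclei and 27.9, 26.6 and 28.5 in the KO libraries. Every KO library lay above every WT library. The KO mean was 1.35 times the WT mean, or 0.41 on the log2 scale (SE 0.082, adjusted p = 0.000831). In Int nuclei the scores were 24.6, 24.3 and 20.2 in WT and 30.3, 30.6 and 30.3 in KO, and the KO libraries were again the higher ones. The log2 fold change there was 0.39 (SE 0.096, adjusted p = 0.00394). In Late nuclei WT scored 18.1, 18.4 and 18.1 and KO 23.9, 23.4 and 26.8, 0.42 apart on the log2 scale (SE 0.077, adjusted p = 0.000562). The gain was thus of like size in both classes, and its difference between them was 0.027 with a 95% interval from -0.21 to 0.26. Alas1 is sparsely covered: 19.9% to 35.6% of the Int nuclei of a library and 12.7% to 17.98% of the Late nuclei had any score. Within Int nuclei the share was 19.9% to 26.5% in WT and 32.4% to 35.6% in KO, and the median depth also differed without overlap, at 10121 to 12877 fragments in WT and 13911 to 14998 in KO. With nuclei matched on fragments the log2 fold change was 0.30 in Int nuclei (limma, adjusted p = 0.0183) and 0.45 in Late nuclei (0.000703). The difference between the classes was not tested in matched nuclei. The call held under every alternative tried over all nuclei and in Late nuclei, but the step shrank under some of them. Over all nuclei it was 0.22 under quantile normalization and 0.26 under cyclic loess. With nuclei weighted by fragments it was 0.34 and passed narrowly (limma, adjusted p = 0.0465). The smallest step of any alternative was 0.23 in Late and 0.21 in Int nuclei. In Int nuclei the call was lost in cluster C5 alone (0.28, adjusted p = 0.645).

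Alas2, on the X chromosome from 150547417 to 150570622 (plus strand), scored 111, 103 and 106 in WT and 93.5, 97.5 and 97.1 in KO over all nuclei. The groups did not overlap, and the mean fell by 9.91% in KO (log2 fold change -0.15, SE 0.043, adjusted p = 0.0118). In Int nuclei the WT scores were 94.6, 89.3 and 93.6 and the KO scores 86.1, 86.7 and 89.9. Here the highest KO library lay above the lowest WT library, and the difference did not pass (log2 fold change -0.078, 95% interval -0.18 to 0.022, adjusted p = 0.275), although it did under median centring (-0.25, 0.0434). In Late nuclei WT scored 120.4, 119 and 123 and KO 109, 107 and 104. All 3 KO libraries lay below all WT libraries there, and the mean fell by 11.8% (log2 fold change -0.18, SE 0.041, adjusted p = 0.00267). The 416 X-linked genes tested had a median log2 fold change of -0.019 over all nuclei, below the 0.096 of all genes tested. The 376 tested in Late nuclei had one of -0.050, against 0.052. Of these, 62 were higher and 94 lower in Late nuclei, where 32.9% and 18.5% of all genes were. Over all nuclei 61 were higher and 73 lower, where 29.1% and 14.2% of all genes were. The part of the X chromosome in the step of Alas2 was not tested. The Late call held under every alternative, whereas that over all nuclei was lost without KO replicate 1 (-0.13, adjusted p = 0.0517), under quantile normalization (-0.094, 0.0843) and cyclic loess (-0.084, 0.122), without a variance trend (0.0601) and with nuclei weighted by fragments (0.154).

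**Figure D1:**
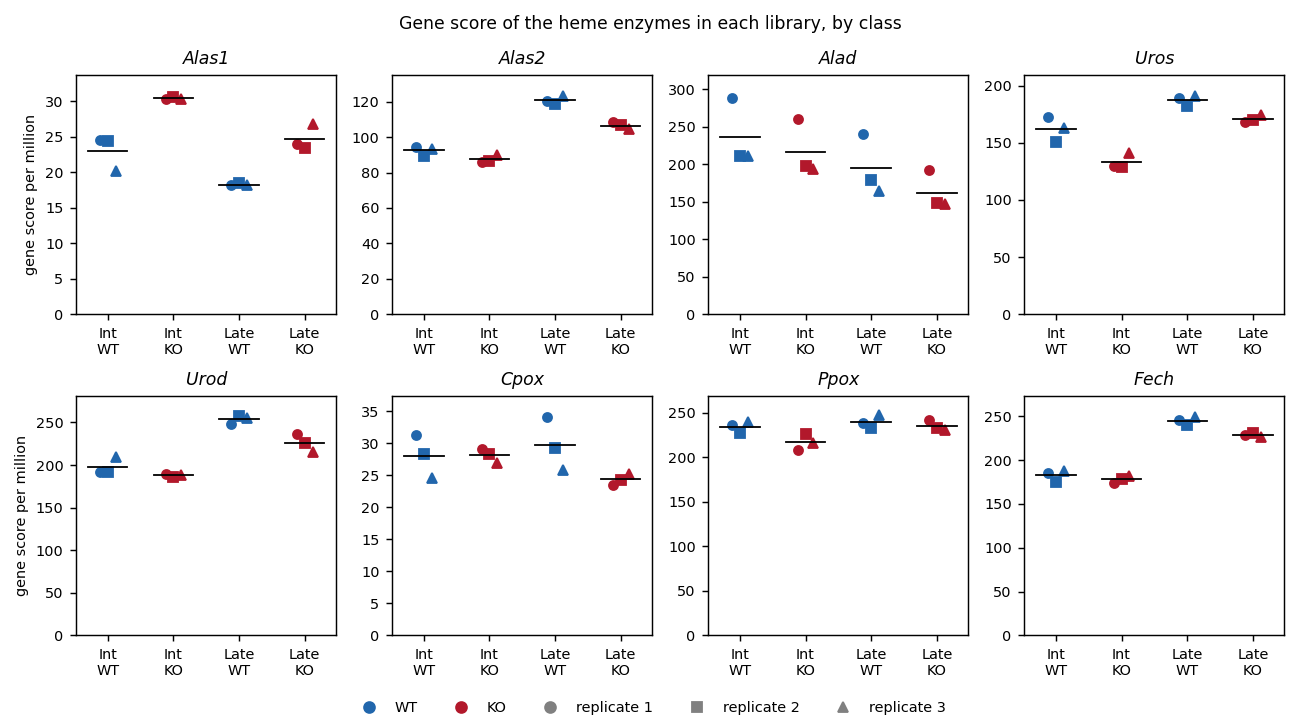
Gene score (summing to 1000000 over genes) of the 8 enzymes (vertical axes, from 0) in Int and Late nuclei of the 3 WT (blue) and 3 KO (red) libraries; marker shapes give the replicate and bars the group mean. In Late nuclei the KO libraries of Alas1 lie between 23.4 and 26.8, above all WT libraries, and those of Alas2 between 104 and 109, below all of them.

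Alad, the first cytosolic enzyme, on chromosome 4 from 62505984 to 62520063 (minus strand), scored 256, 192 and 191 in WT and 226, 169.8 and 169.6 in KO over all nuclei. Replicate 1 of each genotype was the high one, and the groups overlapped. The log2 fold change was -0.18 (95% interval -0.39 to 0.036, adjusted p = 0.157). Int nuclei gave -0.12 (adjusted p = 0.375) and Late nuclei -0.25 (adjusted p = 0.0877), neither past the threshold. Without KO replicate 1 the difference passed over all nuclei (-0.31, adjusted p = 0.00536), Int nuclei (-0.26, 0.0086) and Late nuclei (-0.38, 0.0158), and for the last also without WT replicate 3 (-0.37, 0.0180). Under median centring it passed over all nuclei (-0.32, 0.0123) and in Late nuclei (-0.32, 0.0177). Without WT replicate 1 it was only -0.037 over all nuclei (0.715) and -0.089 in Late nuclei (0.438), and the sign in Int nuclei turned (0.027). Because replicate 1 was high in both genotypes, leaving it out of 1 genotype alone widens or narrows the difference by itself. These settings therefore cannot show whether Alad differs. Without KO replicate 2 or 3 it was -0.11 over all nuclei.

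Uros, on chromosome 7 from 133686355 to 133709295 (minus strand), was lower in KO in all 3 comparisons. Over all nuclei it scored 182, 165 and 175 in WT and 145, 152 and 158 in KO, and every KO library lay below every WT library. The mean fell by 13.0% (log2 fold change -0.20, SE 0.047, adjusted p = 0.00316). In Int nuclei WT scored 172, 150.3 and 163 and KO 129.8, 129 and 141, again without overlap. The mean fell by 17.8% there (log2 fold change -0.28, SE 0.053, adjusted p = 0.000321). In Late nuclei WT scored 189, 182 and 191 and KO 169, 170.1 and 174, apart by less (log2 fold change -0.13, SE 0.038, adjusted p = 0.0115). The Int call was lost without a variance trend (adjusted p = 0.0611) and in cluster C5 alone (-0.44, 0.131), that over all nuclei with nuclei weighted by fragments (-0.22, 0.0637), and the Late call without a variance trend (0.0542), under quantile normalization (-0.082, 0.0906) and cyclic loess (-0.072, 0.134).

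Urod, on chromosome 4 from 116989965 to 116994413 (minus strand), scored 228, 223 and 229 in WT and 206, 208 and 202 in KO over all nuclei. The groups were apart, and the mean fell by 9.50% (log2 fold change -0.14, SE 0.042, adjusted p = 0.0127). In Int nuclei it scored 192, 192 and 209.8 in WT and 189.9, 186 and 188 in KO. The KO libraries were the 3 lowest, yet the log2 fold change of -0.071 did not pass (adjusted p = 0.338). In Late nuclei WT scored 248, 257 and 255 and KO 237, 226 and 215, and the mean fell by 10.9% (log2 fold change -0.17, SE 0.041, adjusted p = 0.00431). The Late call held under every alternative. That over all nuclei was lost without KO replicate 3 (-0.13, adjusted p = 0.0628), under quantile normalization (-0.067, 0.144) and cyclic loess (-0.069, 0.153), and with nuclei weighted by fragments (0.114).

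The 3 mitochondrial enzymes that finish heme did not pass over all nuclei: Cpox had a log2 fold change of -0.13 (adjusted p = 0.237), Ppox one of -0.074 (0.182) and Fech one of -0.089 (0.122). Cpox became lower at the threshold without WT replicate 3 (-0.24, adjusted p = 0.0340), under median centring (-0.28, 0.00311), quantile normalization (-0.29, 0.0114) and cyclic loess (-0.25, 0.0314). Without WT replicate 1 Cpox was at only -0.036 (adjusted p = 0.779). Fech became lower under median centring (-0.24, 0.0381). Ppox was at 0.0030 under quantile normalization.

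In Late nuclei Cpox, on chromosome 16 from 58670208 to 58680391 (plus strand), scored 34.1, 29.3 and 25.8 in WT and 23.4, 24.3 and 25.2 in KO. The KO libraries were the 3 lowest, with WT replicate 3 just above them. The mean fell by 18.1% (log2 fold change -0.27, SE 0.090, adjusted p = 0.0221). The call was lost without WT replicate 1 (-0.17, adjusted p = 0.115), WT replicate 2 (0.0548), KO replicate 1 (0.0673) or KO replicate 2 (0.0533), without a variance trend (0.0515) and with nuclei weighted by fragments (0.0755). In Int nuclei Cpox scored 31.2, 28.4 and 24.5 in WT and 29.0, 28.3 and 27.0 in KO, fully overlapping (log2 fold change 0.0078, 95% interval -0.19 to 0.20, adjusted p = 0.963), and its sign turned under median centring, quantile normalization and cyclic loess.

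Fech, on chromosome 18 from 64456550 to 64489066 (minus strand), scored 246, 239.9 and 249.7 in WT and 228, 231 and 227 in KO in Late nuclei. The groups were apart, but by a small step (log2 fold change -0.10, SE 0.036, adjusted p = 0.0316). Among other settings, the call was lost without WT replicate 1 (0.0522), WT replicate 3 (0.0799), KO replicate 1 (0.0786), KO replicate 2 (0.0580) or KO replicate 3 (0.0866), under quantile normalization (-0.043, 0.317) and cyclic loess (-0.049, 0.267), without a variance trend (0.107) and with nuclei matched on fragments (0.0526). In Int nuclei Fech scored 185, 175 and 188 in WT and 174, 179 and 182 in KO, with overlap (log2 fold change -0.036, adjusted p = 0.644); the sign turned under quantile normalization and cyclic loess.

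Ppox, on chromosome 1 from 171276992 to 171281186 (minus strand), passed in none of the 3 comparisons, like Alad. In Int nuclei it scored 237, 227.0 and 239.5 in WT and 208, 226.6 and 217 in KO. The KO libraries were the 3 lowest, but the highest of them was almost level with the lowest WT library. The log2 fold change was -0.11 (95% interval -0.22 to -0.0043, limma, adjusted p = 0.139). In Late nuclei it scored 239, 233 and 247 in WT and 242, 232 and 231 in KO, with overlap (log2 fold change -0.030, adjusted p = 0.526; 0.024 under quantile normalization).

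In all, Int nuclei had 1 enzyme higher (Alas1) and 1 lower (Uros), where 19.8% of the 19465 genes tested passed, 12.7% as higher and 7.1% as lower. There the groups were apart for 4 of 8 enzymes, 3 of them with KO below WT, against 37.3% and 14.4% of all genes. Ppox is counted among them by 227.0 against 226.6 only. Late nuclei had 1 higher (Alas1) and 5 lower (Alas2, Uros, Urod, Cpox and Fech), where 51.4% of the 15886 genes tested passed, 32.9% as higher and 18.5% as lower. The groups were apart for 6 of 8, 5 of them with KO below WT, against 59.5% and 22.7% of all genes. The median log2 fold change of the 8 was -0.075 in Int and -0.15 in Late nuclei, against 0.057 and 0.052 for all genes tested. All 8 enzymes also pass a stricter filter, a mean score of at least 20, and among the genes that pass it the background differs. There 18.3% were higher and 22.6% lower over all nuclei, 15.5% higher and 13.3% lower for Int nuclei, and 18.9% higher and 27.2% lower for Late nuclei, so lower calls outnumbered higher ones over all nuclei and in Late nuclei. The number lower in Late nuclei ranged from 3 to 5 when 1 library was left out, and was 3 under quantile normalization and under cyclic loess. Over all nuclei it was 6 under median centring, 2 under quantile normalization and 0 with nuclei weighted by fragments. These scalings also move the median of all genes, by -0.15 for median centring and -0.11 for quantile normalization over all nuclei. Its part in the enzyme counts was not tested. The split of all called genes differed too. As reported here 67.1% of them were higher, against 35.4% under median centring, 46.9% under quantile normalization and 54.0% under cyclic loess. In Late nuclei the same shares were 64.0%, 47.9%, 46.5% and 52.5%, and in Int nuclei 64.2%, 24.4%, 50.7% and 57.5%. Some markers moved within the classes too. The summed erythroid score was 1974 to 2026 in WT and 1728 to 1759 in KO in Late nuclei, with 8 of 9 markers lower, and 1591 to 1747 against 1459 to 1556 in Int nuclei, with 6 of 9 lower. The summed stem and progenitor score in Late nuclei was 35.7 to 40.0 in WT and 54.0 to 59.2 in KO, with 5 of 5 tested higher. The fragment ends in peaks there were 64.1% to 66.4% and 60.3% to 61.8%. The summed myeloid score was apart in both classes, at 71.8 to 92.4 in WT and 100.3 to 102.5 in KO for Int and at 65.1 to 73.5 and 88.8 to 90.1 for Late nuclei. So was that of the mast cell and basophil markers, of which only 1 was tested. It was 25.3 to 35.4 and 60.3 to 66.3 for Int and 16.6 to 19.1 and 35.4 to 38.6 for Late nuclei. The lymphoid score was apart in Late nuclei (55.6 to 63.0 in WT and 68.3 to 74.1 in KO). The megakaryocyte score was apart in Int nuclei (183.6 to 214.2 in WT and 222.0 to 237.6 in KO), with 1 of 4 tested higher and 1 lower. It overlapped in Late nuclei (162.0 to 197.9 and 192.8 to 211.2). In Int nuclei the lymphoid score overlapped (88.4 to 99.5 and 99.4 to 110.0), as did others: the stem and progenitor score was 75.4 to 91.0 in WT and 89.2 to 96.4 in KO, and the fragment ends in peaks 55.3% to 61.9% and 55.1% to 56.2%.

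**Figure D2:**
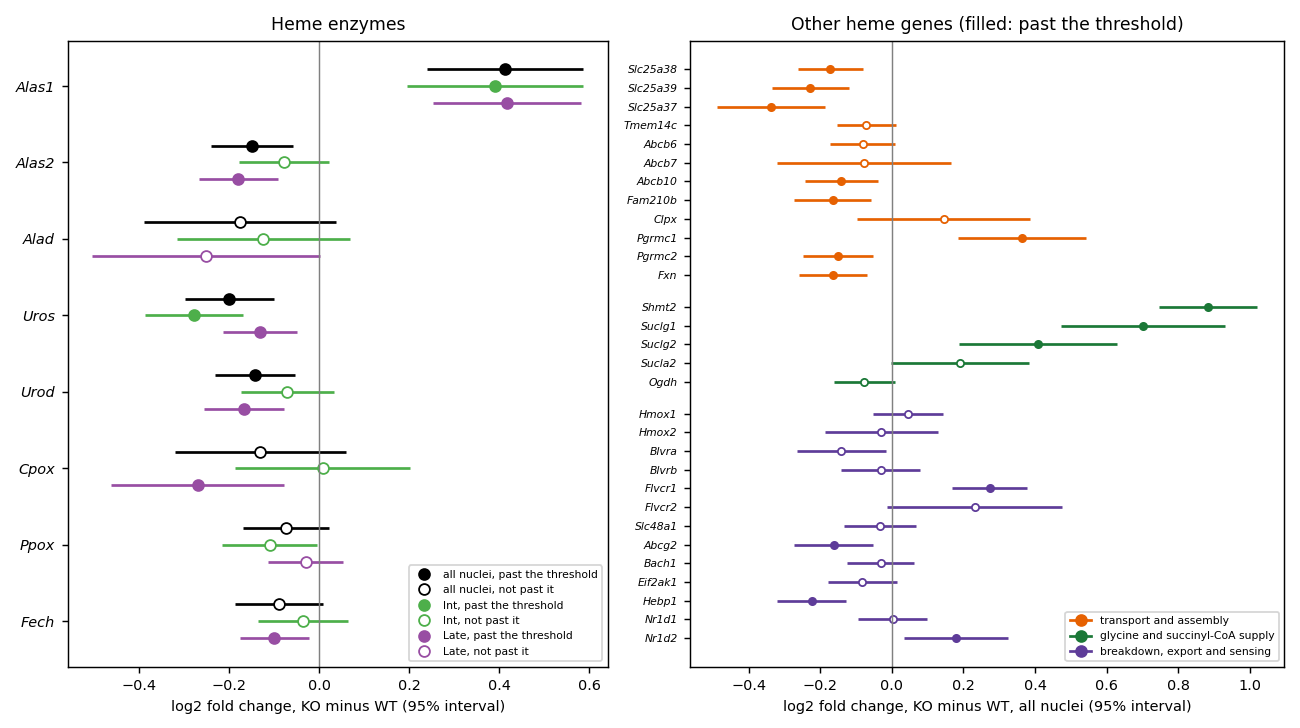
Log2 fold change of the gene score, KO minus WT (horizontal axes), with its 95% interval from limma; left, the 8 enzymes over all nuclei (black), in Int (green) and in Late nuclei (purple); right, the other heme genes over all nuclei, coloured by list. Filled points passed an adjusted p of 0.05; Alas1 lies at 0.39 to 0.42 in all 3 comparisons, and the filled points of the other enzymes lie below 0.

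Whether the KO effect itself differed between Late and Int nuclei was tested on the Late minus Int difference of each library. None of the 8 enzymes passed in limma, where 0.221% of the 15873 genes did, 0.195% as higher and 0.0252% as lower. At an unadjusted p under 0.05 there were 2 of the 8, against 17.6% of all genes. These were Cpox with -0.28 (limma, adjusted p = 0.110) and Uros with 0.15 (limma, adjusted p = 0.222). For Alas2 the difference of effects was -0.10 (95% interval -0.22 to 0.012). So a call in Late but not in Int nuclei is not shown to be a difference between the classes.

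Late and Int nuclei of the same library were also set side by side. Scores are scaled within each nucleus, so a step is a change in a share of the signal, not in its amount. Median depth was 10121 to 14998 fragments in Int and 5693 to 6812 in Late nuclei. The share of nuclei with any Alas2 score was 61.5% to 70.4% in Int and 49.4% to 58.4% in Late nuclei. The part of depth in these steps was not tested. Alas2 was higher in Late nuclei by 0.34, 0.41 and 0.40 on the log2 scale in the WT libraries and by 0.33, 0.29 and 0.21 in the KO libraries. The lowest step was that of KO replicate 3. Fech was higher by 0.41, 0.45 and 0.41 in WT and by 0.39, 0.37 and 0.32 in KO. Urod was higher by 0.28 to 0.42 in WT and by 0.19 to 0.32 in KO, Uros by 0.13 to 0.27 and by 0.30 to 0.40, and Ppox by 0.013 to 0.047 and by 0.036 to 0.21. These 5 were higher in Late nuclei in all 6 libraries, as 29.1% of genes were. Alas1 and Alad were lower in all 6, as 41.4% of genes were. The steps of Alas1 were -0.42, -0.38 and -0.15 in WT and -0.33, -0.37 and -0.17 in KO, smallest in replicate 3 of each genotype. Those of Alad ran from -0.36 to -0.23 in WT and from -0.44 to -0.39 in KO. Cpox alone of the 8 split by genotype: it was higher in Late nuclei by 0.12, 0.043 and 0.070 in the WT libraries, and its steps were -0.30, -0.21 and -0.092 in the KO libraries. Of all genes 0.737% split this way and 0.561% the opposite way. The WT and KO steps did not overlap for 5 of the 8 (Alas2, Alad, Uros, Cpox and Fech), against 23.4% of all genes. No test is attached to these steps, because the basis of the classes is not given and may be the same accessibility data.

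**Figure D3:**
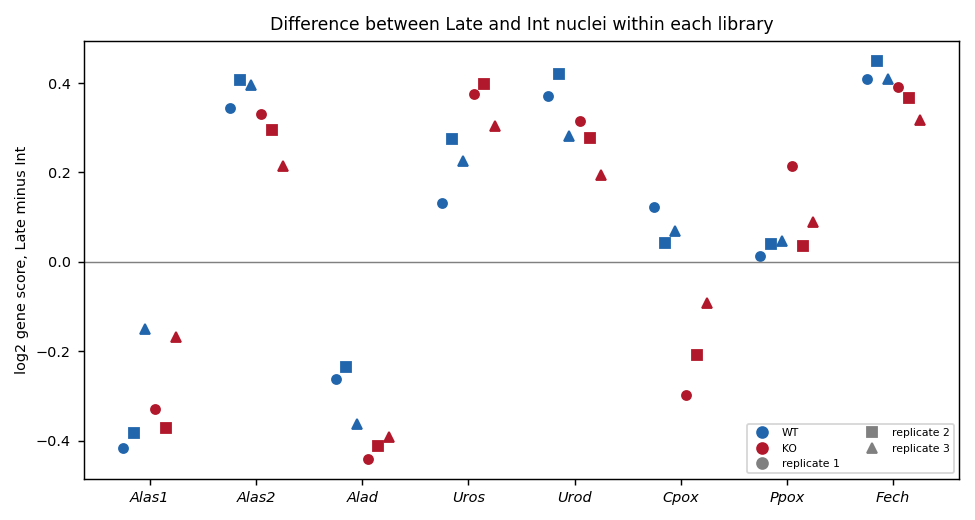
Difference of log2 gene score between Late and Int nuclei (vertical axis) for each of the 8 enzymes in the 3 WT (blue) and 3 KO (red) libraries, marker shapes giving the replicate. Alas2, Uros, Urod, Ppox and Fech lie above 0 in all 6 libraries, Alas1 and Alad below 0 in all 6, and Cpox above 0 in the WT and below 0 in the KO libraries.

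The authors' clusters give a finer division, but most hold almost only 1 genotype. Levels are therefore given where a library had at least 50 nuclei and are not tested. Median depth was 40490 to 43439 fragments in C7 of these libraries. It was 16659 to 19427.5 in C9, 14126 to 15501 in C11 and 5771 to 6960 in C3 of WT libraries. In KO libraries it was 20901 to 21520 in C8, 14911.5 to 16077 in C10 and 6091.5 to 6594 in C2. The part of depth in the levels was not tested. C7, made mostly of Early nuclei, had such numbers in WT replicates 1 and 2 and in KO replicate 1. Alas2 scored 43.0 and 45.95 there in WT and 42.4 in KO, below every other cluster. Among clusters of WT libraries it was 84.8 ± 6.28 in C9, 95.7 ± 5.75 in C6, 97.1 ± 1.96 in C11 and 122 ± 2.92 in C3 (SD, n = 3 libraries each). C6 and C11 did not differ beyond their spread, while C3 stood above all of these. C5 and C2 of the WT libraries, given below, reached 119 and 139. Among clusters of KO libraries Alas2 was 82.4 ± 3.06 in C8, 87.9 ± 0.644 in C10, 95.7 ± 6.00 in C5 and 106 ± 2.14 in C2. Every C5 library lay above every C10 library, by as little as 90.1 against 88.4, and C2 is the highest. Within each genotype Alas1 was highest in C7, where Alas2 was lowest. It scored 35.1 and 38.3 in WT and 38.3 in KO in C7, then 28.7 ± 0.443 in C9, 22.6 ± 2.33 in C11, 18.5 ± 2.95 in C6 and 18.4 ± 0.104 in C3 of WT libraries, with C6 and C3 alike within their spread. In KO libraries it was 36.0 ± 0.875 in C8, 27.8 ± 1.17 in C10, 27.4 ± 5.35 in C5 and 24.7 ± 2.01 in C2. The last 3 of these overlap. The lower WT value of Alas1 in C7 lay below all KO libraries of C8 (35.3 to 37.0), and only 1 KO library is given for C7.

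Fech and Urod were also lowest in C7, though they did not keep the order of Alas2 in every cluster. Fech went from 114.5 and 117 in C7 of the WT libraries to 170.0 ± 7.26 in C9 and 245 ± 5.63 in C3, and Urod from 117 and 127 to 169 ± 11.1 and 253 ± 3.26. Urod was 219.6 ± 2.52 in C6 and 207 ± 4.31 in C11, apart where Alas2 was not. Cpox was highest in C7, at 45.0 and 49.6. It was 34.7 ± 4.71 in C9, 29.7 ± 4.58 in C3, 27.5 ± 2.40 in C11 and 24.5 ± 2.74 in C6. From C9 on, each of these overlapped the next. Of the clusters present in both genotypes, C5 held 143 to 261 nuclei of the WT and 528 to 598 of the KO libraries. In it Uros scored 200.3, 153 and 170.0 in WT and 135, 118 and 133 in KO, without overlap. Alas2 scored 95.02, 88.0 and 119 in WT and 94.96, 90.1 and 102 in KO, fully overlapping, and Alas1 25.0, 17.6 and 25.3 against 22.2, 32.9 and 27.0, also overlapping. In C5 0.879% of 19454 genes passed and 7.86% had all KO libraries below all WT libraries, and no enzyme passed (limma). In C2 the WT libraries had only 58 to 68 nuclei each, and Alas2 spread from 66.9 to 139.

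**Figure D4:**
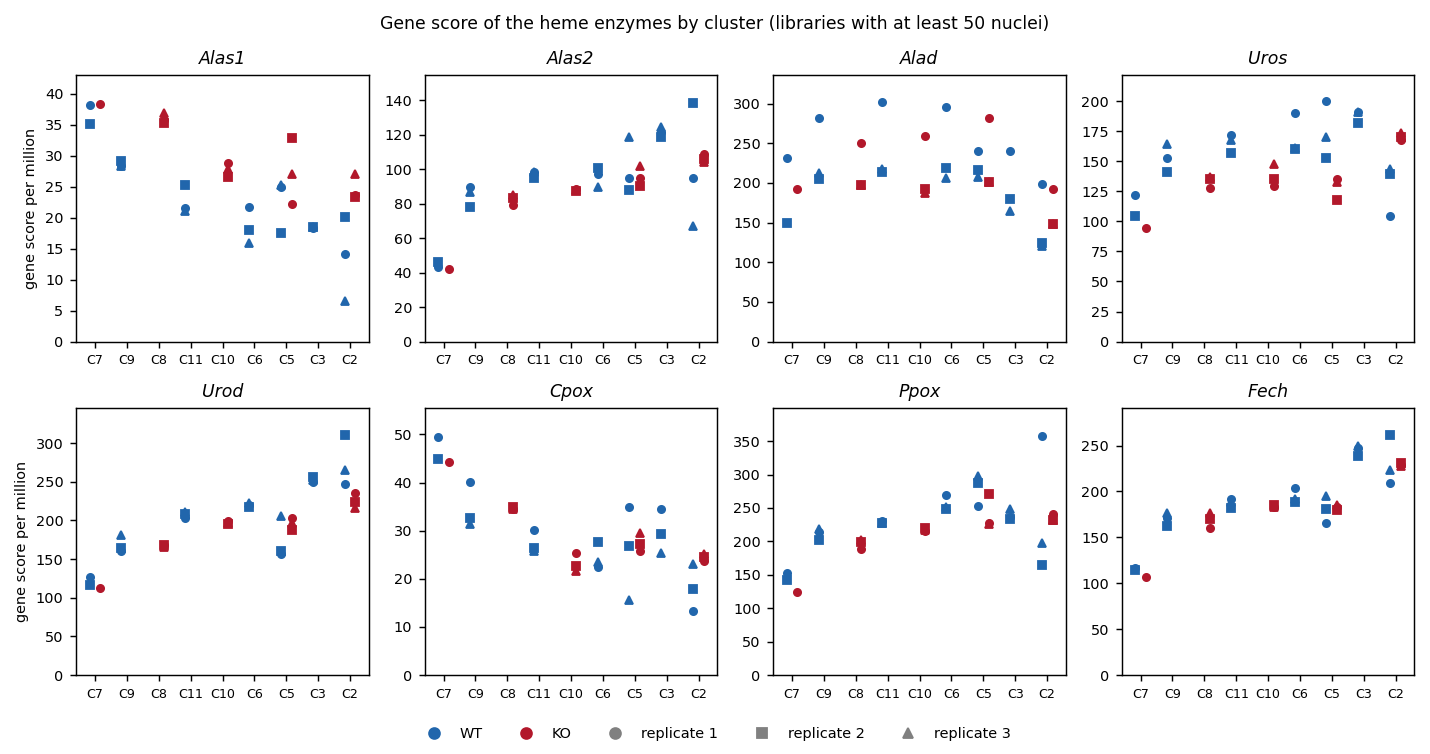
Gene score (summing to 1000000 over genes) of the 8 enzymes (vertical axes, from 0) by the authors' cluster (horizontal axes) in WT (blue) and KO (red) libraries with at least 50 nuclei of the cluster; marker shapes give the replicate. Alas2, Urod and Fech are lowest in C7 and high in C3, and Cpox is highest in C7. Alas1 is highest in C7 within each genotype, where its values overlap those of the KO libraries in C8.

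Over the 33 pairs of library and cluster, Pearson correlations of log2 score between the enzymes are given as a description, since the pairs share libraries and depth. Urod and Fech had r = 0.947, Alas2 and Fech 0.889, and Alas2 and Urod 0.808. Uros and Ppox were at 0.679 and 0.672 with Alas2. Alas1 was at -0.700 with Urod and -0.362 with Alas2, and Cpox at -0.619 with Alas2 and 0.545 with Alas1. Alad followed none of them closely, with values from -0.267 (Urod) to 0.274 (Alas1). The 5 genes most like Alas2 over these pairs, leaving out genes that start within 500000 bp of it, were Gm8013 (r = 0.946), Pofut2 (0.941), Gm10941 (0.938), Dnttip1 (0.931) and Nfe2 (0.921), the last of which encodes an erythroid and megakaryocyte transcription factor. Those most like Alas1 were Asb13 (0.934), Prrt1 (0.927), Ccdc43 (0.923), Ccdc8 (0.918) and Rrp1b (0.916).

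A gene score takes in fragments around a gene by a model that is not given, so genes next to an enzyme may share part of its signal. How far they do was not tested. The genes tested that start within 100000 bp were therefore read beside each enzyme. The nearest were Mir3620, 28 bp from Alas2, Bccip, 38 bp from Uros, and Hectd3, 935 bp from Urod; Mir3620 and Hectd3 are named because of this distance. Their scores were lower in KO as well, with log2 fold changes of -0.14 for Mir3620 (adjusted p = 0.0240, limma), -0.24 for Bccip (0.000812) and -0.14 for Hectd3 (0.0120) over all nuclei. Which gene of such a pair carries the change cannot be told apart in these scores. Over all nuclei 14.2% of all genes were lower and 29.1% higher, and the counts of neighbours stand beside these shares. Of the 4 neighbours of Alas2, 3 were lower, Pfkfb1 the most (-0.38). Both neighbours of Urod were lower (Eif2b3 -0.21), and so were 3 of 5 of Uros. The single neighbour of Fech, Nars, was lower (-0.24). Cpox had 2 of 5 lower, with Cldnd1 at -0.69, more than Cpox itself. Around Alas1 3 of 8 were higher and 1 lower, the largest step being 0.31 for Mir135a-1. Ppox had 3 higher and 2 lower of 15, with Fcer1g at 0.44. None of the 7 neighbours of Alad passed. In Late nuclei, where 18.5% of all genes were lower, the lower neighbours were 4 of 4 for Alas2, 2 of 2 for Urod, 1 of 1 for Fech, 1 of 5 for Uros, 1 of 3 for Cpox, 2 of 7 for Alad, 1 of 8 for Alas1 and 3 of 15 for Ppox. Where 32.9% of all genes were higher, 6 neighbours were higher for Ppox, 2 for Alas1, 1 for Alad and none for the others.

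The high value of replicate 1 at Alad was shared with part of its neighbourhood. In WT replicate 1, Alad was 1.34 times the mean of replicates 2 and 3, and in KO replicate 1 it was 1.33 times. For Hdhd3, which starts 17863 bp away, the ratios were 2.01 and 1.97. Hdhd3 scored 71.4, 37.0 and 34.2 in WT and 48.1, 22.1 and 26.7 in KO. Pole3, 4951 bp from Alad, was at 1.04 and 1.001, so the step was not shared by every neighbour. It was seen in both classes: for Alad the ratios in Int nuclei were 1.37 in WT and 1.34 in KO, and those in Late nuclei 1.40 in WT and 1.30 in KO. Of the 17682 genes tested, 5 (Alad and Hdhd3 among them) had both ratios at least as high as Alad, and of the 3023 with a mean score of at least 100 only Alad did. What distinguishes the first replicates is not given in the labels.

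**Figure D5:**
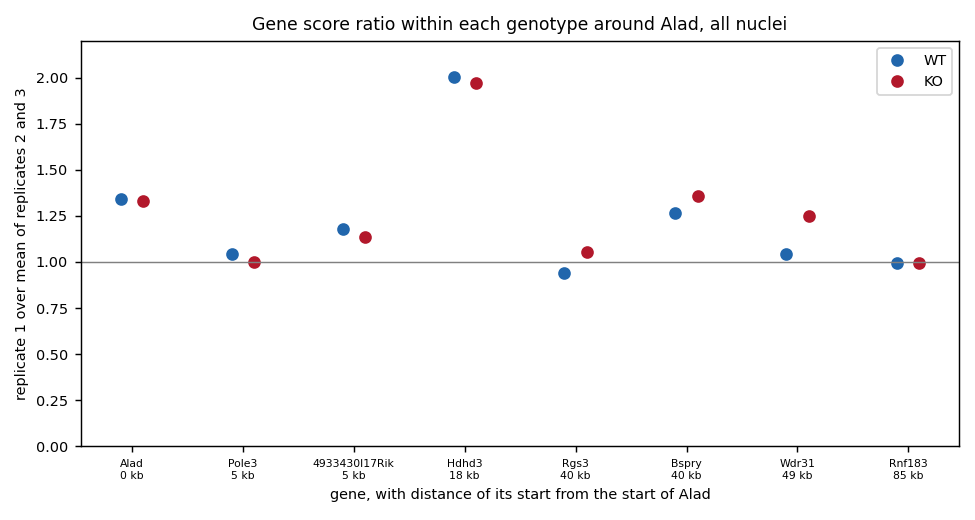
Ratio of the gene score in replicate 1 to the mean of replicates 2 and 3 (vertical axis, from 0; the grey line is 1) for Alad and the tested genes that start within 100000 bp of it, ordered by distance, in WT (blue) and KO (red). Hdhd3 lies near 2 in both genotypes and Alad at 1.34 and 1.33, while Pole3 and Rnf183 lie near 1.

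Other genes of heme metabolism were counted by list, beside the shares of all genes given above, 29.1% higher and 14.2% lower over all nuclei, 12.7% higher and 7.1% lower for Int nuclei, and 32.9% higher and 18.5% lower for Late nuclei. Of 12 genes for transport and assembly, 1 was higher and 7 lower over all nuclei. The counts were 1 and 4 for Int nuclei and 1 and 7 for Late nuclei, with medians of -0.15, -0.096 and -0.13. Slc25a37 (mitoferrin 1), which carries iron into mitochondria, scored 37.4, 38.8 and 42.2 in WT and 33.3, 28.8 and 31.1 in KO over all nuclei. Every KO library lay below every WT library (log2 fold change -0.34, SE 0.072, adjusted p = 0.00146). In Late nuclei it scored 39.3, 41.8 and 47.8 in WT and 31.5, 23.9 and 27.5 in KO, and the mean fell by 35.7% (log2 fold change -0.62, adjusted p = 0.000126). In Int nuclei the groups overlapped (-0.040, adjusted p = 0.746). The difference between the classes was -0.58 (limma, adjusted p = 0.0578), short of the threshold. Among other settings, it passed without WT replicate 3 (-0.54, 0.0397) and under median centring, quantile normalization and cyclic loess. It stayed short in 7 of 13 alternatives, with an adjusted p of up to 0.208. The call over all nuclei was lost with nuclei weighted by fragments (-0.22, 0.0805). Slc25a39, a mitochondrial glutathione carrier, was lower over all nuclei (-0.23, adjusted p = 0.00232), Int nuclei (-0.30, 0.000222) and Late nuclei (-0.14, 0.00675) alike.

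The 5 genes that supply glycine and succinyl-CoA, the substrates of Alas1 and Alas2, had 3 higher and none lower over all nuclei (29.1% and 14.2% of all genes), 2 higher for Int nuclei (12.7% of all genes) and 4 higher for Late nuclei (32.9%), with medians of 0.41, 0.25 and 0.58. Shmt2, the mitochondrial enzyme that makes glycine from serine, scored 27.5, 29.5 and 26.4 in WT and 49.5, 54.2 and 52.7 in KO. The KO mean was 1.88 times the WT mean, with no overlap (log2 fold change 0.88, SE 0.065, adjusted p = 1.81e-08). Suclg1, a subunit of succinyl-CoA synthetase, scored only 9.31, 10.0 and 8.42 in WT and 16.5, 15.5 and 15.0 in KO (0.70, adjusted p = 8.97e-05, limma). Suclg2, another subunit, rose by 0.41 (adjusted p = 0.0055, limma). Both had group means under 20 over all nuclei. Higher calls were more frequent among all genes tested than among those with a mean of at least 20 over all nuclei (29.1% against 18.3%). The same held in Late nuclei (32.9% against 18.9%) but not in Int nuclei (12.7% against 15.5%). In Int nuclei the call of Suclg1 (0.45, adjusted p = 0.0248) was lost without WT replicate 1 (0.0554), KO replicate 1 (0.182), KO replicate 2 (0.0600) or KO replicate 3 (0.0602), with nuclei matched on fragments (0.32, 0.0827) and in cluster C5 alone (0.35, 0.682). The call of Suclg2 over all nuclei was lost under quantile normalization (0.13, 0.191) and cyclic loess (0.19, 0.0640), and with nuclei weighted by fragments (0.31, 0.142).

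Of 13 genes for heme breakdown, export and sensing, 2 were higher and 2 lower over all nuclei, where 29.1% and 14.2% of all genes were. The counts were 1 and 1 for Int nuclei and 2 and 3 for Late nuclei, with medians of -0.031, 0.027 and -0.034. Hebp1, a heme-binding protein, was the lowest of these. It scored 107, 104 and 114 in WT and 96.5, 90.7 and 91.4 in KO, without overlap, and was lower over all nuclei (-0.22, adjusted p = 0.00104), Int nuclei (-0.21, 0.00248) and Late nuclei (-0.25, 0.000924) alike. In Int nuclei its call was lost without a variance trend (0.0743) and in cluster C5 alone (-0.29, 0.383).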

How the data were processed

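Nuclei of sorted Ter119+ erythroblasts were profiled as 10x Genomics multiome libraries, per the labels. The authors deposited a gene score (a signal) for each gene and nucleus, scaled so that each nucleus summed to between 9999.855 and 10000.12 over 24333 genes in 34073 nuclei; 25.2% of values were above 0. Per the file headers the table of nuclei gives the count of ATAC fragments, a doublet score, a share of fragments in peaks, the class, the cluster and the genotype. Each nucleus was listed 2 times, and 1 copy was used; the lowest fragment count was 1000. Cell Ranger and mm10 are named in the submitters' processing notes, with no role. The aligner settings, the score model, the filters and the basis of the classes are not given in the sources used here. Of the symbols, 23863 were in a RefSeq GRCm38.p6 table, 23860 of them on the same chromosome, and 91.2% of left ends were within 1000 bp. Neither the labels of these libraries nor the files name a batch.

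The library was the replicate. Scores were averaged over nuclei per library and class, rescaled to 1000000, and compared as log2(value + 1) for genes with a mean of at least 5, with limma 3.58.1 in R 4.3.3 (two-sided, with eBayes and a variance trend over the mean, Benjamini-Hochberg over all genes tested, threshold 0.05). On this log2(value + 1) scale the fold changes of low scores come out too small. A class was fitted where every library had at least 50 nuclei of it, which left out Early. Averages, promoter searches and figures used Python 3.11.15, numpy 2.4.6, pandas 2.3.3 and matplotlib 3.10.9. The fits were also run on simulated data with known changes. A log2 change of 0.25 was found for 60.6% of the changed genes over all nuclei, 24.2% in Int and 45.5% in Late nuclei. Smaller changes were not simulated. A step of that size or less that did not pass is therefore not shown to be absent. The enzymes and gene lists were chosen with earlier results of these data known. Named by rule were the 8 enzymes, of the other heme genes the 3 highest and 3 lowest log2 fold changes over all nuclei among those past the threshold, for each enzyme the neighbour with the largest absolute log2 fold change, and the 5 genes most like Alas2 and Alas1. Alternatives were other pseudocounts, filters and scalings, no variance trend, nuclei weighted by or matched on fragments, doublet removal, a replicate block, cluster C5 alone and leaving out each library. The precision rests on 3 libraries per genotype. Doublets were otherwise left as deposited. A comparison of the proteins of the isozymes was not run, and 1 item of the rule for named genes is not reported here.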

Additional observations from a re-analysis of the deposited data

Results flagged for a closer look

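For 3 of 38 heme genes the Late minus Int difference had one sign in all 3 WT libraries and the opposite sign in all 3 KO libraries; of 15873 genes, 206 (1.3%) did so. For Cpox the KO effect was lower in Late than in Int nuclei by a log2 difference of -0.28 (adjusted p = 0.110, limma). For Slc25a37 this difference was -0.58 (adjusted p = 0.0578), with steps of 0.18, 0.20 and 0.32 in WT and -0.18, -0.53 and -0.34 in KO. For Abcb10, a mitochondrial inner-membrane transporter that binds mitoferrin 1, it was -0.13 (adjusted p = 0.242), and its KO steps of -0.034, -0.0031 and -0.0032 were close to 0. None of the 3 passed the threshold.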

How the results depend on the processing

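Of the 8 enzymes, 4 passed over all nuclei, 2 in Int and 6 in Late nuclei. Over all nuclei the count was 7 under median centring and 1 with nuclei weighted by fragments. Without a variance trend it was 1 in Int and 3 in Late nuclei, and in cluster C5 alone 0. Leaving out 1 library gave 3 to 5, 2 to 3 and 4 to 6. Of all genes, 7661 passed over all nuclei, 4244 with a mean of at least 20 and 2415 with nuclei weighted by fragments; 3858 passed in Int nuclei, 1921 without a variance trend, 171 in C5 alone and 2568 to 4780 with 1 library left out (2568 without KO replicate 1); 8161 passed in Late nuclei, 4560 with a mean of at least 20. The difference between classes was called for 35 genes, for 216 with a pseudocount of 10, 1921 under median centring, 238 under quantile normalization, 214 under cyclic loess, 206 without a variance trend and 0 to 837 with 1 library left out (837 without WT replicate 3). Its share of higher calls was 88.6%, and 52.1% under quantile normalization.

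Signs turned, mostly near 0. Under quantile normalization and cyclic loess, Ppox was at 0.0030 and 0.00016 over all nuclei and at 0.024 and 0.020 in Late nuclei, and in Int nuclei Fech was at 0.021 and 0.035, Abcb10 at 0.0070 and 0.0069, and Urod at 0.0019 under cyclic loess. In cluster C5 alone Alad was at 0.033, Urod at 0.18, Fech at 0.013 and Slc25a37 at 0.25. With 1 library left out Alad in Int nuclei ran from -0.26 (without KO replicate 1) to 0.027 (without WT replicate 1), and Slc25a37 at 0.00013 without the nuclei of highest doublet score. Cpox in Int nuclei was at -0.17 under median centring, -0.14 under quantile normalization, -0.11 under cyclic loess, -0.015 with nuclei weighted by fragments, -0.0067 without the nuclei of highest doublet score, -0.0025 with as many nuclei at random, an alternative added after seeing the data, -0.082 without WT replicate 3 and -0.015 without KO replicate 1, against 0.086 without WT replicate 1 and 0.16 in cluster C5 alone. For the difference between classes, Alas1 was at -0.023 without WT replicate 1, -0.0060 without WT replicate 2 and -0.033 without KO replicate 3, against up to 0.11 without WT replicate 3, and under median centring Alas2 was at 0.0097, Urod at 0.016, Fech at 0.047 and Hebp1 at 0.070. The cause was not tested.

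The labels do not say whether same-numbered libraries were paired. Their deviations from the group means correlated at -0.273 to 0.206 over all nuclei, -0.0842 to 0.192 in Int and 0.0453 to 0.0871 in Late nuclei. Such correlations over all genes cannot show whether libraries were paired. With a replicate block 5 enzymes passed over all nuclei, 2 in Int and 6 in Late nuclei and 0 for the difference, and 7470, 4527, 7982 and 12 of all genes. With the block Alad passed over all nuclei (adjusted p = 0.00219) and in Late nuclei (0.00126), and Fech in Late nuclei did not (0.0571). With 3 libraries per genotype, small steps such as that of Fech are at the limit of what these data resolve.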
